A study of Mus musculus with 58 samples.

Results

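The transporters of the blood-brain barrier described here are 10 genes of the 18088 in the deposited table: the organic anion transporters Slco1a4, Slco1c1 and Slc22a8, the ATP-driven efflux pumps Abcb1a, Abcg2 and Abcc4, and the nutrient carriers Slc2a1, Slc16a1, Slc7a5 and Mfsd2a. They were chosen by symbol. Slco1a4 was singled out because it was lower in heterozygous than in wild-type mice under vehicle, so that contrast is given for it as a description and carries no test. The series profiled prefrontal cortex of C57BL/6J mice by stranded, poly(A)-selected RNA sequencing on postnatal day 25. Mice were heterozygous for Kmt5b (HT), which encodes a histone methyltransferase, or wild-type (WT). Nursing dams carried vehicle, fluoxetine (a serotonin reuptake inhibitor) or lithium (a mood stabiliser) to the pups in their milk from postnatal day 3 to 24, for 3 weeks in all. Each combination of genotype, treatment and sex had 5 libraries, apart from the WT lithium females and males with 4 each, which gave 12 groups and 58 libraries. Sexes are pooled below as 10 libraries per genotype and treatment, or 8 for WT lithium, and sex is a term of the fit. The labels gave neither the Kmt5b allele nor the litter. Pups of 1 dam would share a treatment, and the p values then measure the spread between pups, not between litters.

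Brain capillaries are lined by endothelial cells sealed by tight junctions, so solutes cross through carriers in their membranes. Glucose enters through Slc2a1, lactate and ketone bodies through Slc16a1, large neutral amino acids through Slc7a5, and lysolipids that carry docosahexaenoic acid through Mfsd2a. Abcb1a, Abcg2 and Abcc4 pump drugs and conjugates back to the blood, and the organic anion carriers move thyroid hormones, steroid conjugates and bile salts. Wnt and beta-catenin signalling is known to set up and maintain this barrier programme. Several of these genes are also expressed by other brain cells. Slc2a1 and Slco1c1 occur in astrocytes, Slc16a1 in glia, and Slc22a8 in choroid plexus and meninges.

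The 58 libraries held 23.5 to 38.6 M reads as computed from the normalised counts, with a median of 27.6 M. In 4 of the 58 the recovery of whole reads could not be checked. Kmt5b did not separate the genotypes: it averaged 1709 ± 90.2 in HT and 1616 ± 119 in WT under vehicle (SD, n = 10 each) and was not lower in HT under any treatment, so the genotype rests on the labels. Excitatory cortical markers were present at summed levels of 114301 to 187989 in every library. The sum of 4 olfactory bulb markers (Tbx21, Eomes, Cdhr1 and Doc2g) ran from 95.8 to 10513, with 10 libraries under 500 and 3 over 8000, and 1 HT fluoxetine library had a striatal marker sum of 8073 against a low of 2462. None of the 10 HT vehicle libraries was among these 14, whereas 5 of 10 HT fluoxetine libraries were. A fit without the 14 libraries and a fit that took the olfactory bulb level as covariate were therefore run, the first after the data had been seen. All 20 endothelial markers were in the table, and their summed level overlapped between all 6 groups of genotype and treatment, with medians from 15010 in WT fluoxetine to 16088 in WT vehicle. Fewer endothelial cells and less RNA per cell cannot be told apart in bulk tissue.

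All 10 transporters passed the minimum mean of 10 normalised counts that left 16669 genes for testing. Per kilobase of exon, the order of levels was Slc2a1 (943 normalised counts per kb), Slc7a5 (595), Slco1c1 (471), Slc16a1 (379), Mfsd2a (351), Slco1a4 (238), Abcb1a (195), Slc22a8 (179), Abcg2 (77.6) and Abcc4 (58.1). The glucose carrier thus stood highest and the conjugate pump Abcc4 lowest. Slc7a5 varied least over the 58 libraries, with a coefficient of variation of 8.80%, and Slc2a1 most, at 19.7%. Among near relatives, Abcb1b, a close copy of Abcb1a, averaged 63.3 normalised counts against 1067 for Abcb1a, and reads shared by the pair could have been assigned to either. Slco1b2 averaged 8.52 and was not tested.

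Slco1a4 and Slco1c1 lie close together on chromosome 6 (GRCm38, GENCODE annotation), on opposite strands: Slco1a4 at chr6:141805440-141856199 on the minus strand and Slco1c1 at chr6:141524368-141570177 on the plus strand. The promoter windows below are from RefSeq on GRCm38.p6 and run 5′ to 3′ up to the RefSeq gene start. Where a GENCODE exon of the gene begins earlier, the sequence stops before it, as for Slc2a1 with 216 of 250 bases. Capitals mark the hypoxia response core ACGTG on either strand (CACGT on the other strand; where the match reads CACGTG it overlaps the E-box motif). They are shown for the 3 carriers that changed with lithium in both genotypes and for Slco1a4.

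Slco1a4 (chr6:141856221-141856470, minus strand): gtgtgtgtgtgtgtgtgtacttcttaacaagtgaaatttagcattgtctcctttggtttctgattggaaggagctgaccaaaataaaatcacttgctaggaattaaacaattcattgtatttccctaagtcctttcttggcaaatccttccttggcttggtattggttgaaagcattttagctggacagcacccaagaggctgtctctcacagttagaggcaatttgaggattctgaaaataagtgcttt
Slc2a1 (chr4:119108495-119108710, plus strand): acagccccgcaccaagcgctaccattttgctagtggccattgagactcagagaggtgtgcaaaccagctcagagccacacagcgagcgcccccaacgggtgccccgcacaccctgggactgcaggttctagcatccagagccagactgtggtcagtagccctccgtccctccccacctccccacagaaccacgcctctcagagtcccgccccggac
Mfsd2a (chr4:122961189-122961438, minus strand): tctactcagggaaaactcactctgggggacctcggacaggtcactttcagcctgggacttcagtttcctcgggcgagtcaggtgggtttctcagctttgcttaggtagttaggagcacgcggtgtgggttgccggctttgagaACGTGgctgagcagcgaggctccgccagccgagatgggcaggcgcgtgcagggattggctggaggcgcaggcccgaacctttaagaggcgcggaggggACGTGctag
Slc16a1 (chr3:104638414-104638663, plus strand): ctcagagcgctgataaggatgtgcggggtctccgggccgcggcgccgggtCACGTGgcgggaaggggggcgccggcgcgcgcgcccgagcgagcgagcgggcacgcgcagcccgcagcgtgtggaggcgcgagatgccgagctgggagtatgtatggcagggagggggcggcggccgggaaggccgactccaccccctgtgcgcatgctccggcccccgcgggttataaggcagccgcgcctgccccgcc

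Windows were matched for 9 of the 10 genes, all but Slc7a5. The Slco1a4 window was the poorest in G and C of these 4 (39.2%), against 63.9% for the 216 printed bases of Slc2a1, 61.6% for Mfsd2a and 76.4% for Slc16a1. ACGTG occurred in windows of 4 of the 9 genes, Abcc4, Mfsd2a, Slc16a1 and Slc2a1, and in 16.6% of 32851 RefSeq windows of 300 bases. For every motif, only the 250 bases before the RefSeq start were searched. A gene was counted if any of its windows matched, and the 9 genes had 12 windows. The percentages are per window, so they are not the same measure as the gene counts. The Slc2a1 match lies past the annotated start and is not printed. Mfsd2a, which was higher with lithium, and Slc16a1, which was lower, both hold the letters, and the Slco1a4 window holds none. CTTTGAA, a form of the beta-catenin partner motif, was found for Abcb1a among the 9 genes and in 4.46% of all windows, and CTTTGAT for none of the 9 and in 3.21%. The RefSeq window of Abcb1a, chr5:8566841-8567090, lies far upstream of the GENCODE gene start at 8660077. The GC box GGGCGG was found for Abcc4, Abcg2, Slc16a1 and Slc2a1, and in 32.7% of all windows. These are matches of letters and not measured sites.

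Slco1a4, which carries organic anions, bile salts and thyroid hormone across the endothelium, had its highest and its lowest group mean under vehicle. WT vehicle libraries ran from 1443 to 2097 with a median of 1664, and HT vehicle libraries from 1158 to 1564 with a median of 1352. Of the 10 HT vehicle libraries, 9 lay below every WT vehicle library. The fitted log2 difference under vehicle was -0.35, or -0.42 in females and -0.28 in males, and 0.048% of all genes passed an adjusted p of 0.05 in that contrast. This is the value by which the gene was picked.

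Under fluoxetine the order of the genotypes was the opposite. WT fluoxetine libraries ran from 1284 to 1663 with a median of 1489, and HT fluoxetine libraries from 1377 to 1864 with a median of 1667. The groups overlapped, with 5 of 10 HT libraries above every WT library. The log2 difference was 0.12 (SE 0.0576, 95% interval 0.0019 to 0.233) and did not pass the test (limma, adjusted p = 0.349). Under lithium, WT libraries ran from 1384 to 1750 with a median of 1540, and HT libraries from 1329 to 1602 with a median of 1403. Here HT was the lower group again, by a log2 difference of -0.11 (SE 0.0611, 95% interval -0.234 to 0.0107, limma adjusted p = 0.539), with 7 of 10 HT libraries below the WT median. Averaged over both drugs the genotype difference was 0.0028 (SE 0.042, 95% interval -0.0814 to 0.087, limma adjusted p = 0.992).

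The 6 group means of Slco1a4 were, from the top, 1707 ± 188 in WT vehicle, 1632 ± 164 in HT fluoxetine, 1552 ± 106 in WT lithium, 1503 ± 132 in WT fluoxetine, 1437 ± 111 in HT lithium and 1338 ± 123 in HT vehicle (SD, n = 10, or 8 for WT lithium). Each neighbouring pair in this order differed by less than the SD of either group. Set against vehicle, a contrast that shares the libraries used to pick the gene and is therefore a description, WT mice stood at -0.18 with fluoxetine and -0.13 with lithium on the log2 scale, and HT mice at 0.29 and 0.10. A contrast added after the data had been seen, the genotype difference under fluoxetine minus that under lithium, uses no vehicle library. It was 0.23 for Slco1a4 (SE 0.0839, unadjusted p = 0.00861) and did not pass over all genes (limma, adjusted p = 0.238).

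**Figure D1:**
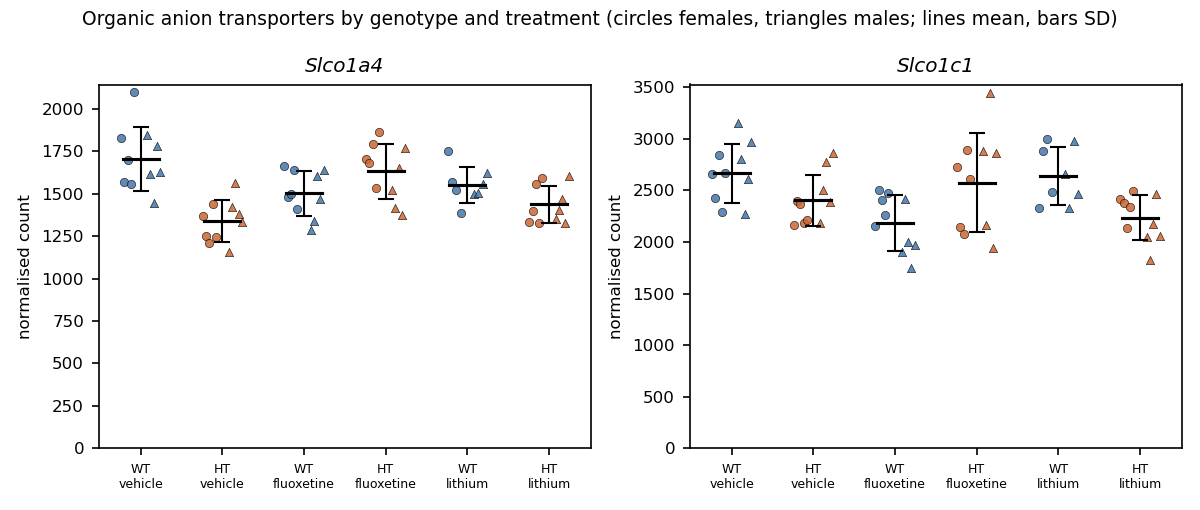
Normalised counts of Slco1a4 (left) and Slco1c1 (right) in each of the 58 libraries, by genotype and treatment, with WT in blue, HT in orange, circles for females, triangles for males, lines for means and bars for SD; the axes start at 0. For Slco1a4, 9 of 10 HT vehicle libraries lie below all WT vehicle libraries, and the HT fluoxetine libraries reach 1864; for Slco1c1, the WT fluoxetine group has the lowest mean.

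Slco1c1, a thyroxine carrier on the same chromosome as Slco1a4, showed opposite genotype differences under the 2 drugs, neither of which passed the test. Under fluoxetine, WT libraries ran from 1744 to 2502 with a median of 2209 and HT libraries from 1942 to 3441 with a median of 2672. Under lithium, WT libraries ran from 2330 to 2995 with a median of 2573 and HT libraries from 1823 to 2490 with a median of 2255. So 6 of 10 HT fluoxetine libraries lay above every WT fluoxetine library, while all 10 HT lithium libraries lay below the WT lithium median. The log2 difference was 0.22 under fluoxetine (SE 0.0749, limma adjusted p = 0.147) and -0.24 under lithium (SE 0.0794, limma adjusted p = 0.261). The difference of these differences, from the contrast added after the data had been seen, was 0.47 (SE 0.109, unadjusted p = 8.28e-05) and missed the threshold (limma, adjusted p = 0.0622). It passed by DESeq2 on the 54 libraries with recovered reads (adjusted p = 0.015), with a covariate for olfactory bulb level (limma, adjusted p = 0.0145), and without any 1 of 7 single libraries. Over 14 other settings it ranged from 0.27 to 0.49, with adjusted p values from 0.0145 to 0.47. In the fit as first given, 0.048% of all genes passed. Within groups, Slco1c1 was lower where olfactory bulb markers were higher (r = -0.57 over the 58 libraries).

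Fluoxetine lowered Slco1c1 in WT mice. WT vehicle libraries ran from 2267 to 3149 with a median of 2661, and all 10 WT fluoxetine libraries lay below that median, 6 of them below every vehicle library. Slco1c1 fell by 0.29 on the log2 scale (SE 0.0749, limma adjusted p = 0.0119), by 0.46 in males and 0.13 in females. In HT mice the difference was 0.08 (limma, adjusted p = 0.495). The difference between the genotypes in this fluoxetine effect was 0.37 (SE 0.106, limma adjusted p = 0.16), so it was not shown to differ, although without HT fluoxetine male 4 it passed (0.43, limma adjusted p = 0.0443). With lithium, Slco1c1 stood at -0.01 in WT and -0.11 in HT, and neither passed.

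Slc22a8, the organic anion exporter that clears neurotransmitter and drug metabolites, passed in no comparison. Its group means ran from 634 normalised counts in HT lithium to 748 in HT fluoxetine. All 10 HT lithium libraries lay below the HT fluoxetine median. Averaged over genotype, lithium against fluoxetine was -0.11 (SE 0.0552, limma adjusted p = 0.205). Choroid plexus, which also makes Slc22a8, could be judged from 10 listed markers, whose summed level was 128 to 1015 in every library outside WT fluoxetine, where it reached 2872. Their part in the Slc22a8 values was not tested.

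Across the 10 transporters, no genotype difference passed under fluoxetine (0.612% of all genes did), under lithium (0.06%) or averaged over both drugs (0.438%), by limma, edgeR or DESeq2. At an unadjusted p under 0.05, limma gave 4, 2 and 1 of the 10, beside 2319, 1683 and 1872 of 16669 genes. The 4 under fluoxetine were Slco1a4, Slco1c1, Abcg2 (0.18, SE 0.0543) and Slc16a1 (0.21, SE 0.0787), all higher in HT, and the 2 under lithium were Slco1c1 and Abcb1a (-0.20, SE 0.0685), both lower in HT. The median of the 10 differences was 0.08 under fluoxetine and -0.08 under lithium, beside -0.0028 and 0.0013 over all genes. Under vehicle, as a description, the other 9 transporters ranged from -0.15 (Slco1c1) to 0.00 (Slc7a5), with 8 of the 9 below 0. For 9 of the 10 genes the signed difference, HT minus WT, was more positive under fluoxetine than under lithium. The median of this contrast over all genes was -0.0028. In that contrast, which was added after the data had been seen, 0 of 10 passed by limma or edgeR and 1 by DESeq2. By limma, 0.048% of all genes passed. An unadjusted p under 0.05 was found for 6 of the 10 by each tool, beside 2174 of 16669 genes by limma. By limma this count was 2 of the 10 with the endothelial marker level as a covariate. It was 3 of the 10 without the 14 libraries of extreme olfactory bulb or striatal level.

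**Figure D2:**
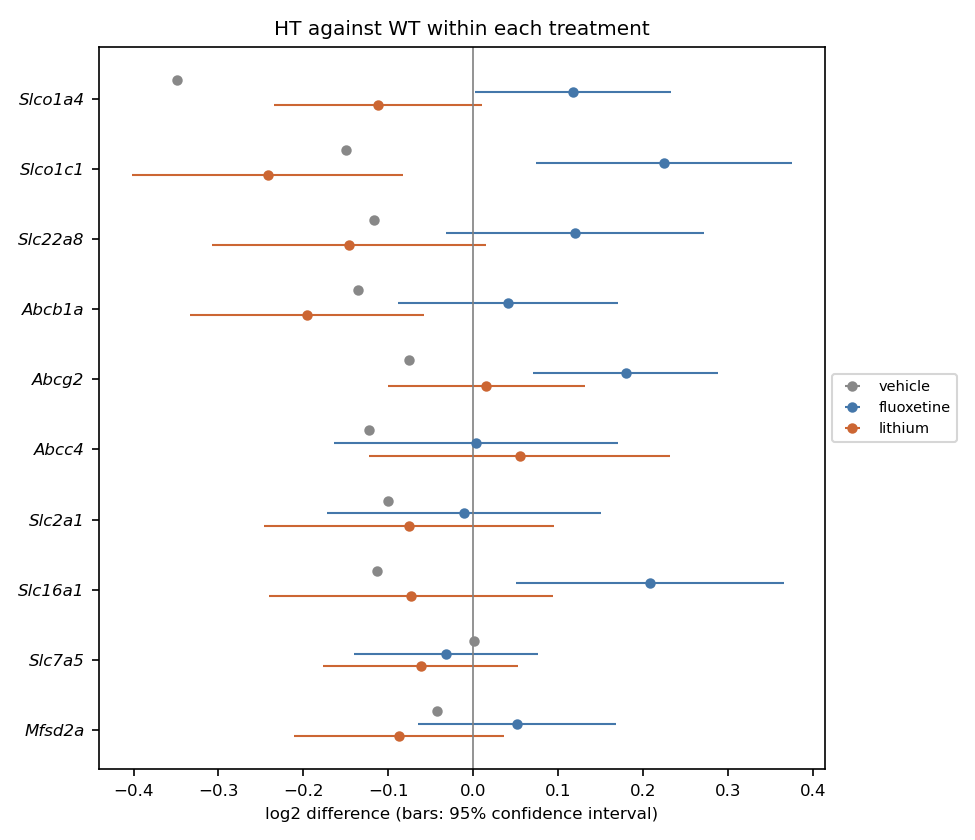
Log2 difference of HT against WT for each transporter under vehicle (grey), fluoxetine (blue) and lithium (orange), with 95% confidence intervals for the 2 drugs; vehicle points are a description and carry no interval, since Slco1a4 was picked by that contrast. Slco1a4 is at -0.35 under vehicle and 0.12 under fluoxetine, and no fluoxetine or lithium value passed an adjusted p of 0.05.

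Slc2a1 mRNA, which encodes the glucose carrier, was higher with lithium in both genotypes. In WT mice, vehicle libraries ran from 2283 to 3239 with a median of 2917 and lithium libraries from 3003 to 5115 with a median of 4226. In HT mice, vehicle libraries ran from 2301 to 2965 with a median of 2656 and lithium libraries from 3174 to 4333 with a median of 4021. The HT groups did not overlap, and 7 of 8 WT lithium libraries lay above every WT vehicle library. Slc2a1 rose 1.42-fold in WT (log2 0.50, SE 0.0852, limma adjusted p = 0.000153) and 1.44-fold in HT (log2 0.53, SE 0.0803, limma adjusted p = 1.34e-05). It was also higher with lithium than with fluoxetine, by 0.32 averaged over genotype (SE 0.0586, limma adjusted p = 0.000117), a comparison that uses no vehicle library. Blood markers moved with it there: of 5 (Hbb-bs, Hbb-bt, Hba-a1, Hba-a2 and Alas2), 2 were called higher with lithium than with fluoxetine, Hba-a1 (0.32, limma adjusted p = 0.0473) and Hba-a2 (0.35, limma adjusted p = 0.0328). Against vehicle, the median of the 5 was 0.35 with lithium in WT and 0.03 in HT, with none called. Their summed level ran from 5357 to 18667 in WT lithium, from 7708 to 11678 in HT lithium, from 5207 to 13903 in WT fluoxetine, from 5721 to 14110 in HT fluoxetine, from 6091 to 16125 in WT vehicle and from 5681 to 10630 in HT vehicle, and no marker was at 0 in any library. Within groups the blood marker level had r = 0.50 with Slc2a1 over the 58 libraries, and its part in the Slc2a1 values was not tested. Fluoxetine gave a smaller rise in HT (0.24, SE 0.0803, limma adjusted p = 0.0371), with HT fluoxetine libraries from 2599 to 3793, and 0.15 in WT (limma, adjusted p = 0.229). The HT fluoxetine call did not hold by edgeR (adjusted p = 0.0564), without the 14 libraries of extreme marker level (limma, adjusted p = 0.157) or without any 1 of 11 single libraries. Nor did it hold by limma on the 54 libraries with recovered reads (adjusted p = 0.0761). Without the 14 libraries the difference was 0.24.

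Mfsd2a, the lysolipid carrier of the endothelium, moved the same way. WT vehicle libraries ran from 621 to 777 with a median of 720, and WT lithium libraries from 740 to 1105 with a median of 883. HT vehicle libraries ran from 620 to 756 with a median of 708, and HT lithium libraries from 716 to 984 with a median of 867. In both genotypes most lithium libraries were above every vehicle library, 7 of 8 in WT and 8 of 10 in HT. Mfsd2a rose by 0.32 in WT (SE 0.0615, limma adjusted p = 0.000887) and by 0.28 in HT (SE 0.058, limma adjusted p = 0.00101). With fluoxetine it rose in HT (0.21, SE 0.058, limma adjusted p = 0.0151), a call that ended without the 14 libraries (0.22, limma adjusted p = 0.0851). In WT it stood at 0.11 with fluoxetine (limma, adjusted p = 0.223). Lithium exceeded fluoxetine by 0.14 (SE 0.0423, limma adjusted p = 0.0212), and this ended without those libraries (0.179) or without either of 2 WT lithium females (0.0527 and 0.0542). Hba-a1 and Hba-a2 were higher in that comparison too, as given for Slc2a1, and the blood marker level had r = 0.39 with Mfsd2a within groups. Its part in the Mfsd2a values was not tested.

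Slc16a1, the carrier of lactate and ketone bodies, went the other way. WT vehicle libraries ran from 1739 to 2476 with a median of 2027, WT lithium libraries from 1328 to 1648 and WT fluoxetine libraries from 1123 to 1784. The WT lithium and vehicle libraries did not overlap, and 9 of 10 WT fluoxetine libraries lay below every vehicle library. Slc16a1 fell by 0.43 with lithium (SE 0.0834, limma adjusted p = 0.000998) and by 0.45 with fluoxetine (SE 0.0787, limma adjusted p = 0.000158) in WT. In HT, vehicle libraries ran from 1466 to 2166 with a median of 1871 and lithium libraries from 1189 to 1648 with a median of 1408. All 10 HT lithium libraries lay below the vehicle median, a fall by 0.39 (SE 0.0787, limma adjusted p = 0.000627). HT fluoxetine libraries were spread from 1394 to 2216, and their difference of -0.13 did not pass (SE 0.0787, limma adjusted p = 0.299). The difference between genotypes in the fluoxetine effect was 0.32 (SE 0.111, limma adjusted p = 0.273).

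Slc7a5, the large neutral amino acid exchanger, passed in no comparison. Its group means lay between 2142 in HT vehicle and 2331 in WT lithium. The drug differences were 0.03 to 0.11, and the interval nearest to a change, for lithium in WT, was -0.0023 to 0.228 on the log2 scale.

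**Figure D3:**
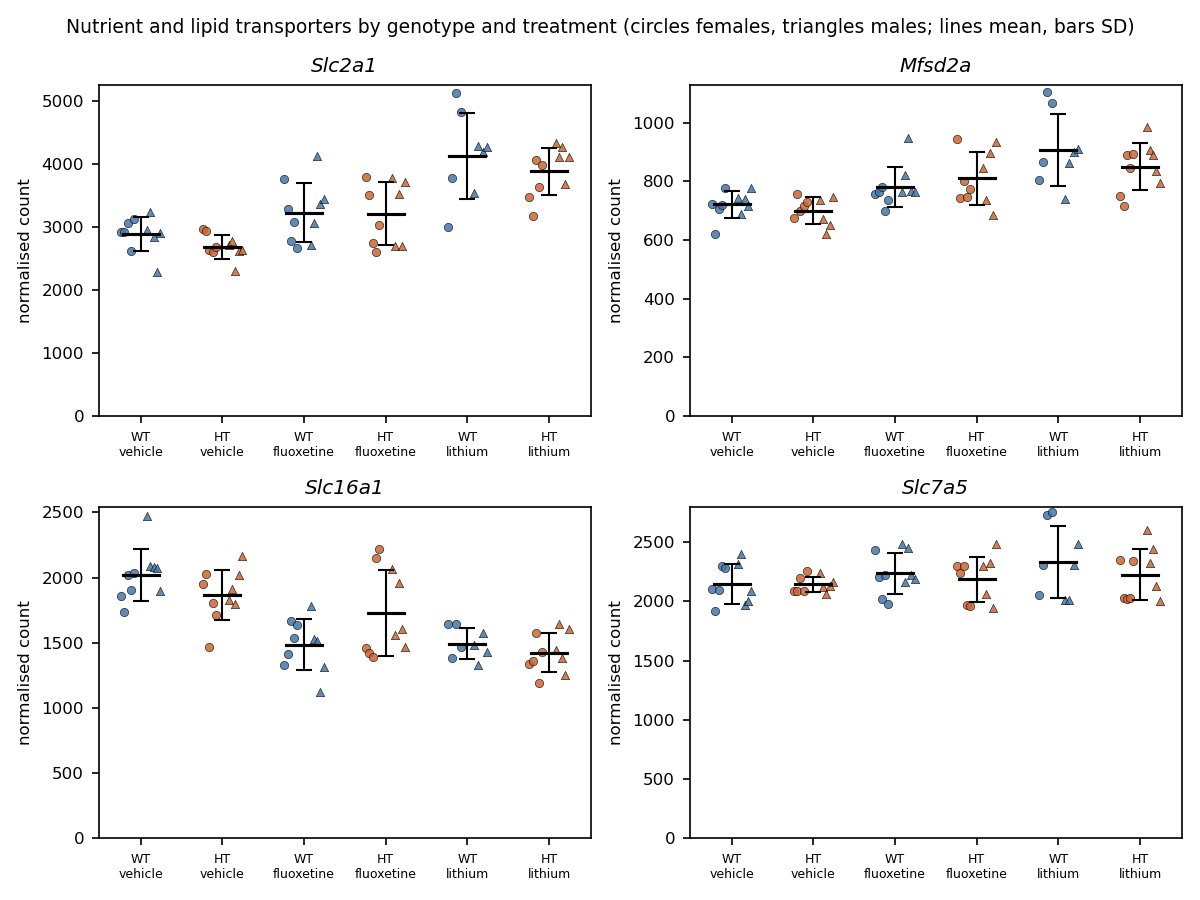
Normalised counts of the nutrient and lipid carriers Slc2a1, Mfsd2a, Slc16a1 and Slc7a5 in each library by genotype and treatment, with WT in blue, HT in orange, circles for females, triangles for males, lines for means and bars for SD; the axes start at 0. Slc2a1 and Mfsd2a have their highest means under lithium, Slc16a1 its highest under vehicle, and Slc7a5 group means lie between 2142 and 2331.

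Among the efflux pumps, Abcc4, which exports cyclic nucleotides and conjugates, and Abcg2, which exports drugs and sterol conjugates, were higher with both drugs in HT mice. For Abcc4, HT vehicle libraries ran from 244 to 351 with a median of 315, HT fluoxetine libraries from 318 to 484 and HT lithium libraries from 328 to 483. All 10 libraries of each drug lay above the vehicle median. Abcc4 rose by 0.38 with fluoxetine (SE 0.0833, limma adjusted p = 0.00226) and by 0.38 with lithium (SE 0.0833, limma adjusted p = 0.00146). In WT, vehicle libraries ran from 267 to 375, and the difference with fluoxetine was 0.25 (SE 0.0833, limma adjusted p = 0.0508), past the threshold by edgeR (adjusted p = 0.0476) and DESeq2 (0.0328) and, in limma, without the 14 libraries of extreme marker level (0.38, adjusted p = 0.00945). With lithium in WT it was 0.20 (limma, adjusted p = 0.221).

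Abcg2 ran from 459 to 665 in HT vehicle, from 639 to 762 in HT fluoxetine and from 593 to 741 in HT lithium. Every HT fluoxetine and HT lithium library was above the HT vehicle median of 574. Abcg2 rose by 0.28 with fluoxetine (SE 0.0543, limma adjusted p = 0.000615) and by 0.23 with lithium (SE 0.0543, limma adjusted p = 0.00336). In WT the differences were 0.03 and 0.14 and did not pass. The fluoxetine effect differed between HT and WT by 0.25 (SE 0.0769, limma adjusted p = 0.191).

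Abcb1a, the P-glycoprotein of brain endothelium, ran from 819 to 1082 in HT vehicle and from 906 to 1271 in HT fluoxetine, with 7 of 10 fluoxetine libraries above every vehicle library. It rose by 0.22 (SE 0.0646, limma adjusted p = 0.0173), a call that ended by edgeR (adjusted p = 0.0726), by DESeq2 (0.0616) and without the 14 libraries (limma, 0.11). The call also ended by limma on the 54 libraries with recovered reads (adjusted p = 0.0884). Without the 14 libraries the difference was 0.22. With lithium the differences were 0.21 in WT (SE 0.0685, limma adjusted p = 0.0786) and 0.15 in HT (limma, adjusted p = 0.103). Both passed with the endothelial marker level as a covariate (limma, adjusted p = 0.0323 and 0.0213).

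**Figure D4:**
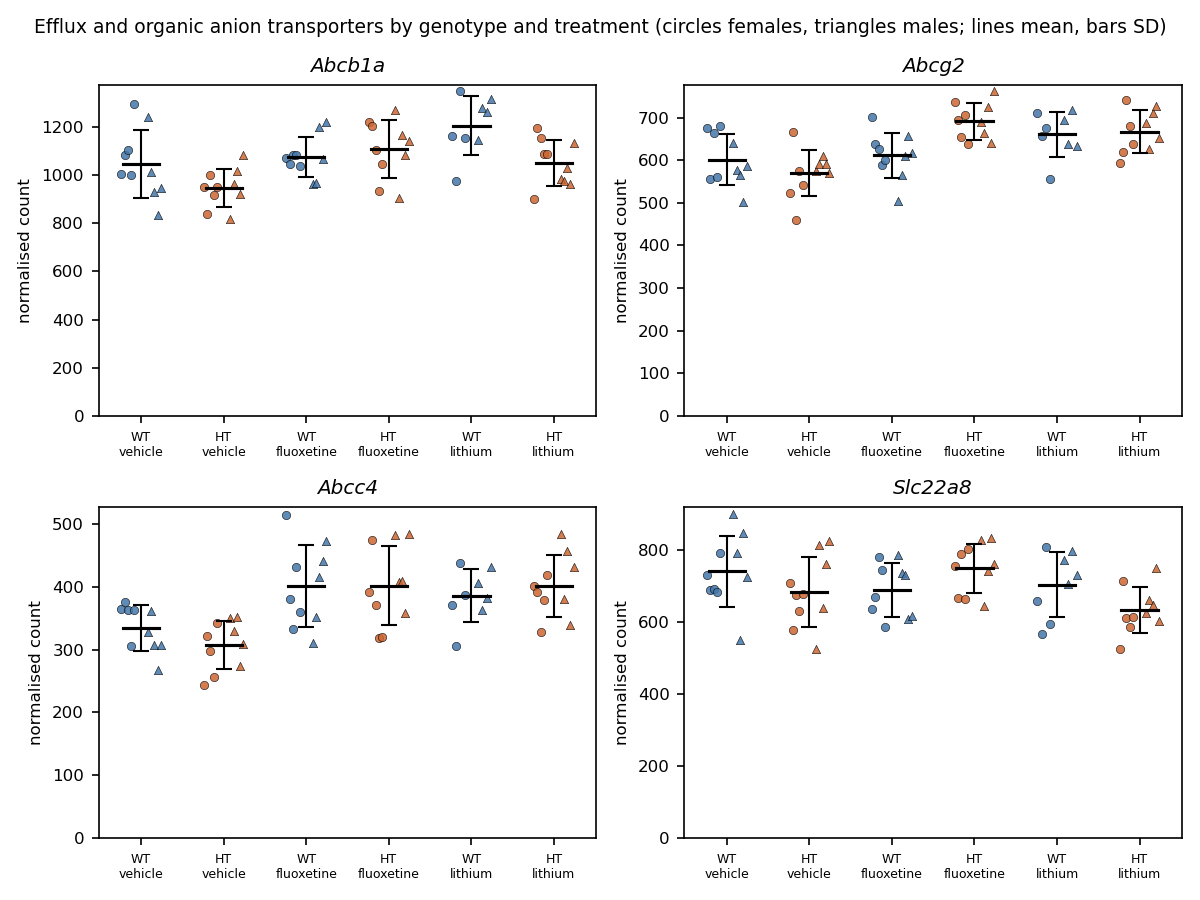
Normalised counts of the efflux pumps Abcb1a, Abcg2 and Abcc4 and of Slc22a8 in each library by genotype and treatment, with WT in blue, HT in orange, circles for females, triangles for males, lines for means and bars for SD; the axes start at 0. For Abcc4 and Abcg2 all HT fluoxetine and HT lithium libraries lie above the HT vehicle medians of 315 and 574.

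Counted over the 9 transporters other than Slco1a4, fluoxetine against vehicle in WT gave 0 higher and 2 lower (Slco1c1 and Slc16a1), where 7.39% of all genes passed, 3.98% as higher and 3.41% as lower. In HT it gave 5 higher (Abcb1a, Abcg2, Abcc4, Slc2a1 and Mfsd2a) and 0 lower, where 12.8% passed, 6.84% as higher and 5.96% as lower. Lithium against vehicle in WT gave 2 higher (Slc2a1 and Mfsd2a) and 1 lower (Slc16a1), where 3.34% passed, 1.95% as higher and 1.39% as lower. In HT it gave 4 higher (Abcg2, Abcc4, Slc2a1 and Mfsd2a) and 1 lower (Slc16a1), where 14.1% passed, 7.46% as higher and 6.61% as lower. The median difference of the 9 was 0.05 and 0.21 with fluoxetine in WT and HT, and 0.14 and 0.15 with lithium, beside -0.0009 to -0.0032 over all genes. Both drugs were set against the same vehicle libraries, so the 2 sets of values are not independent. The 9 genes were also chosen with the genotype contrast in those libraries known. Lithium against fluoxetine, free of vehicle, called Slc2a1 and Mfsd2a higher among the 10, where 12.3% of genes passed, 6.62% as higher and 5.71% as lower. The HT fluoxetine count was 3 by edgeR, 4 by DESeq2 and 2 without the 14 libraries of extreme marker level, where the 2 were Abcg2 and Abcc4.

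**Figure D5:**
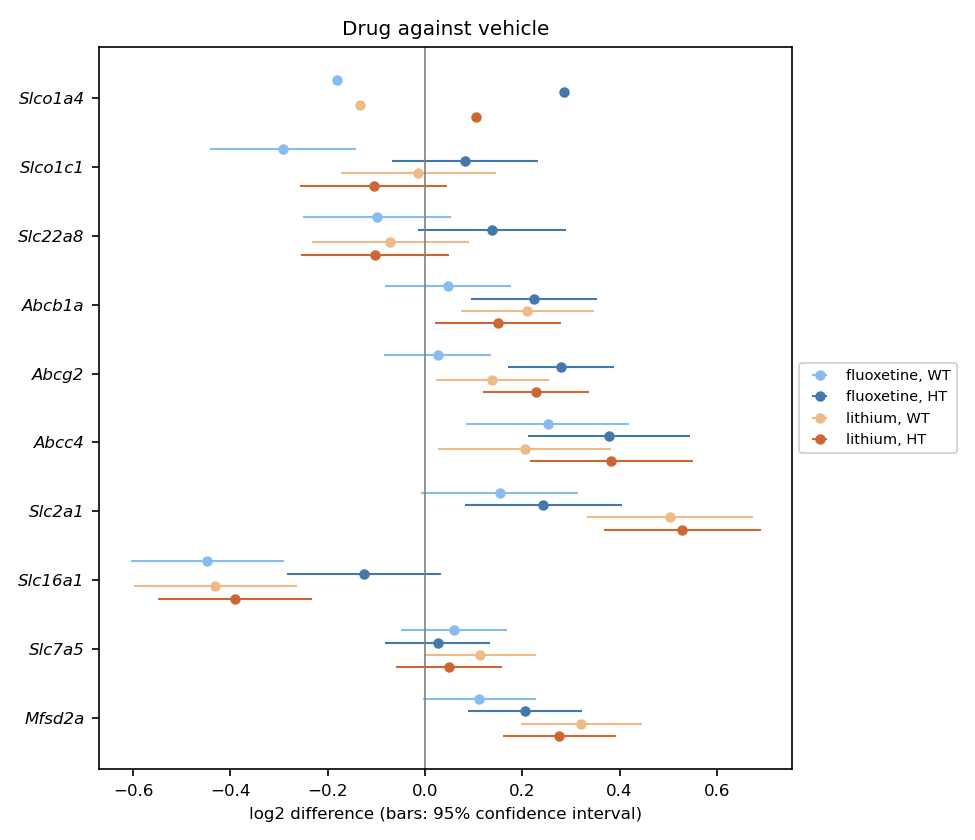
Log2 difference of each drug against vehicle for each transporter, with fluoxetine in blue and lithium in orange, WT in light and HT in dark shades, and 95% confidence intervals; Slco1a4 carries no interval because it was picked with the vehicle libraries. Slc2a1 stands at 0.50 and 0.53 with lithium and Slc16a1 at -0.43 and -0.39.

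No difference between genotypes in a drug effect passed for the 9 genes by limma, edgeR or DESeq2, for fluoxetine (0.042% of genes passed) or lithium (0%). At an unadjusted p under 0.05, limma gave 4 and 0 of the 9, beside 1858 and 2320 of 16669 genes. Sex made no difference past the threshold in any of the 10 by the same 3 tools, where 0.132% of genes passed. The only unadjusted p under 0.05 by limma was for Slc22a8, higher in males by 0.09 (SE 0.0446, adjusted p = 0.578), beside 1376 of 16669 genes.

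Endothelial RNA varied within the groups, and the transporters followed it unequally. After subtraction of group means, the mean z score of the 20 endothelial markers was correlated over the 58 libraries with Slco1c1 (Pearson r = 0.66, Spearman rho = 0.63), Slc22a8 (0.60 and 0.53), Slc7a5 (0.54 and 0.52), Abcb1a (0.53 and 0.49), Mfsd2a (0.44 and 0.43) and Slc2a1 (0.39 and 0.31). The adjusted permutation p values of Pearson's r were 3.33e-05 for the first 3, 0.0001 for Abcb1a, 0.00088 for Mfsd2a and 0.00367 for Slc2a1, over 10 relations, and 3.33e-05 follows from the smallest p that 100000 resamples can give. Without the 2 libraries farthest from the median marker level, r lay between 0.38 (Slc2a1) and 0.60 (Slco1c1) for these 6. Slco1a4 (r = 0.21, rho = 0.17, adjusted permutation p = 0.155), Abcc4 (0.17 and 0.17), Slc16a1 (0.14 and 0.14) and Abcg2 (0.07 and 0.08) did not pass, and Slco1a4 fell to 0.10 without those 2 libraries. With the marker level as a covariate, every transporter called with either drug was still called. Some of these markers were themselves called with a drug, so this fit cannot say what part endothelial RNA had.

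Between the transporters themselves, 39 of 45 pairwise correlations were above 0, with a median of 0.21. These are descriptive, over 58 libraries that each give every gene from the same tissue piece and depth. The closest pairs were Slc2a1 with Mfsd2a (r = 0.68), Slc7a5 with Mfsd2a (0.61) and Slc2a1 with Slc7a5 (0.60), and the most opposed was Abcc4 with Slc16a1 (-0.34). Slco1a4 was nearest to Abcb1a (0.49) and Abcg2 (0.43), and its r with Slco1c1 was 0.18. Over all genes, the 8 most like Slco1a4 were Galnt4 (r = 0.62), Sp100 (0.59), Aspn (0.58), Pla2r1 (0.56), Pros1 (0.56), Gjb6 (0.55), Dnase2a (0.55) and Slc39a12 (0.55). The 5 most like Slco1c1 were Zbtb46 (0.71), B4galt2 (0.71), Siglech (0.71), S1pr1 (0.69) and Tmem44 (0.69). Gjb6 is among the astrocyte markers, whose mean level had r = 0.54 with Slc22a8, 0.53 with Abcb1a, 0.44 with Slc2a1, 0.44 with Slco1a4 and 0.37 with Mfsd2a, and 0.09 to 0.23 with the other 5.

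Of 25 other carriers of the barrier, fluoxetine in WT called 1 higher, Abcc5 (0.23, adjusted p = 0.000778), and 2 lower, among them the glutamine carrier Slc38a5 (-0.57), by limma. Of all genes, 3.98% passed there as higher and 3.41% as lower. In HT, where 6.84% of all genes passed as higher and 5.96% as lower, fluoxetine called 5 higher. Among them were the transferrin receptor Tfrc (0.30), the sodium, potassium and chloride cotransporter Slc12a2 (0.24), Abcc5 (0.16) and the iron exporter Slc40a1 (0.30). Lithium in HT called 1 higher, Abcc5 (0.17), and 3 lower, among them Slc38a5 (-0.52) and the glutamine carrier Slc38a3 (-0.26). There 7.46% of all genes passed as higher and 6.61% as lower. Averaged over both drugs, where 0.438% of all genes passed, the cationic amino acid carrier Slc7a3 was higher in HT than in WT (0.33, SE 0.0749, limma adjusted p = 0.0328). None of the 25 passed between genotypes under fluoxetine (0.612% of all genes did) or lithium (0.06%) alone. The list's medians lay between -0.06 and 0.07 in these comparisons, beside -0.0038 to 0.0013 over all genes.

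Among 18 measured regulators of the barrier, lithium called 2 higher and 1 lower in WT, where 1.95% and 1.39% of all genes passed in those directions, and 2 higher and 1 lower in HT, where 7.46% and 6.61% did. Ctnnb1, which encodes beta-catenin, was lower with lithium in WT (-0.22, SE 0.0395) and HT (-0.31, SE 0.0372). The Wnt receptor Fzd4 was higher with lithium in HT (0.32) and Sox17 too (0.25), while the co-receptor Lrp5 (0.22) and Sox18 (0.45) were higher in WT, all by limma. Fluoxetine in HT, where 6.84% of all genes passed as higher and 5.96% as lower, called 4 higher and 0 lower, Sox17 (0.36), Reck (0.27), Tspan12 (0.19) and Foxf2 (0.32), and in WT 0 of the 18 in either direction. Of 11 junction genes, beside the same shares of all genes, lithium in HT called 0 higher and 4 lower, among them Cldn5 (-0.37), Cdh5 (-0.25) and Lsr (-0.21), and fluoxetine in HT 2 higher, Ocln (0.28) and F11r (0.22). With fluoxetine or lithium in WT none of the 11 passed.

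The endothelial markers moved in both directions in the same comparisons. Fluoxetine in HT called 3 of 20 higher and 0 lower (6.84% and 5.96% of all genes), and in WT 0 higher and 1 lower, Tek (-0.39), where 3.98% and 3.41% of all genes passed. Lithium in HT, where 7.46% of all genes passed as higher and 6.61% as lower, called 1 of 20 higher, Ly6c1 (0.29), and 4 lower, among them Kdr (-0.42), Cldn5 (-0.37) and Tek (-0.34), and in WT 1 higher and 0 lower, Sox18 (0.45), where 1.95% and 1.39% passed. In the lithium comparison in HT, the rest of the 20 markers were not called, and Cldn5 is also among the junction genes above. Slc2a1 and Mfsd2a were called higher there, and how their rise relates to endothelial RNA was not tested. The part of astrocyte, meningeal or other cell RNA in these values was not tested.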

How the data were processed

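The deposited table held 18088 genes by 58 libraries. Its values are signal: per the submitters' processing notes the authors used Salmon 0.11.2, R 3.6.0, DESeq2 1.19.11 and GRCm38, and the deposited values are counts divided by a size factor per library. Whole reads were recovered in 54 libraries, where 100% of values came out whole within 0.01; in the other 4 the step lay too near 1. The plan allowed for counts or normalised values, and limma 3.58.1 (R 4.3.3) was used on log2(value + 1) for 16669 genes with a mean of at least 10, leaving out 1419. All 12 groups entered 1 fit, with Benjamini-Hochberg adjustment over all genes and a threshold of 0.05. Differences are on that log2 scale. edgeR 4.0.16 and DESeq2 1.42.0 on the recovered reads were alternatives. Tested on simulated data for lithium against vehicle in WT over 16669 genes, the fit recovered 29% of 1.2-fold and 82% of 1.5-fold changes. Replicate pairs differed by 2.92 to 57.4 times the counting noise, so no library was counted as a copy. Replicate numbers did not pair libraries (mean r of same-numbered deviations -0.0076). The named genes were the 10 transporters, up to 4 genes with the smallest p per list and comparison, and the 8 and 5 genes most like Slco1a4 and Slco1c1. The transporters and the lists were chosen with earlier results of these data known. Some genes of these lists are not reported here.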

Additional observations from a re-analysis of the deposited data

Results flagged for a closer look

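In 3 of 120 sets of 1 transporter in 1 group of genotype, treatment and sex, 1 library stood far from the others of its group; chance gives about 1 in 20 such sets. For Abcc4, WT vehicle female 4 was the lowest of 5 at 306 normalised counts. For Slc2a1, WT lithium male 1 was the lowest of 4 at 3541. For Mfsd2a, HT fluoxetine female 1 was the highest of 5 at 945.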

How the results depend on the processing

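The genotype difference of Slco1a4 averaged over both drugs lay so near 0 that its sign changed: it was -0.0075 with the replicate number as a block, -0.0166 without the 14 libraries of extreme marker level, and -0.0109 to 0.0173 without 1 library in turn. It did not pass in any of these, and its sign under each drug alone did not change. Transporters called between genotypes under lithium numbered 1 with a covariate for olfactory bulb level (Slco1c1, -0.28, limma adjusted p = 0.0474). With fluoxetine in HT, 3 were called by edgeR and 3 by limma on the same 54 libraries, and 2 without the 14 libraries. Lithium against fluoxetine called 1 without those libraries. Leaving out 1 library in turn gave 0 to 1 called between genotypes under fluoxetine (1 without HT fluoxetine male 4, Slco1c1, adjusted p = 0.0458) and 1 to 2 for lithium against fluoxetine (1 without WT lithium female 3 or female 4). The cause was not tested. The replicate block left 4 of 5 calls with fluoxetine in HT (Slc2a1, limma adjusted p = 0.0514) and changed no other call of a transporter. Same-numbered libraries did not deviate together, and 12 of 58 were closest to their own number. Over all genes, calls with fluoxetine in HT were 2134, and 469 without the 14 libraries or 4095 with the olfactory bulb covariate. Between genotypes under fluoxetine they were 102, with a range over the alternatives of 7 to 226. Under lithium they were 10, with a range of 2 to 32.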

Other observations

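Of 9 genes that handle thyroid hormone, which Slco1c1 and Slco1a4 also carry, Dio2, the deiodinase that activates thyroxine, was higher in HT with fluoxetine (0.31, limma adjusted p = 0.00172) and with lithium (0.26, limma adjusted p = 0.00565). Among 10 astrocyte markers the connexin Gjb6 was higher with lithium in WT (0.38) and HT (0.50) and the factor Sox9 lower (-0.32 and -0.44), all past the limma threshold. Of all genes, 1.95% passed as higher and 1.39% as lower in WT, and 7.46% and 6.61% in HT. The rest of the astrocyte list is not described here.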
